A study of Macaca mulatta with 6 samples.

Results

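SNORD112, SNORD113 and SNORD114 are small nucleolar RNAs (snoRNAs) of the imprinted DLK1-DIO3 domain, and they were followed here in the whole testis of wild-type juvenile rhesus monkeys. The members are all genes of the deposited small RNA count table whose name starts with SNORD112, SNORD113 or SNORD114, which gave 33 of 3083 genes. One of them is named SNORD112 and 32 are named SNORD113. No gene carries the name SNORD114 in the table, although a separate table of gene names calls 7 of the 32 by SNORD114 numbers, 3 by SNORD113 numbers and the rest by none. Testes came from 3 monkeys infused with vehicle for 48 h (animals 7, 9 and 11, aged 24, 14 and 15 months) and from 3 infused with pulses of FSH and LH for 48 h (animals 8, 10 and 12, aged 22, 14 and 15 months). Libraries are called by group and animal number. The total was 2146412 to 3170784 counts per library.

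These RNAs belong to the C/D box class, short RNAs that sit in a particle with the methyltransferase fibrillarin. Most C/D box snoRNAs guide ribose methylation of ribosomal RNA by base pairing, whereas those of the DLK1-DIO3 domain have no established ribosomal target and are called orphan snoRNAs. They are cut from introns of a long noncoding RNA that is made from the maternal chromosome, between groups of miRNA genes of the same domain, and they are known above all from brain. The domain also holds the paternally expressed genes DLK1, RTL1 and DIO3, the last of which inactivates thyroid hormone.

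All members lie on chromosome 7 (rheMac8). SNORD112 (ENSMMUG00000036267, 163232089 to 163232165) comes first, and the 32 SNORD113 genes follow 35692 bp further on, in a row of 65.83 kb from 163267781 to 163333611. They are numbered here as copies 1 to 32 in that order. The median distance from one start to the next was 1208 bp, with a range of 398 to 8150 bp. The genes are 67 to 78 nt long, and 32 of the 33 are on the plus strand; the exception is copy 13 (ENSMMUG00000036017). The SNORD113 row lies between the genes of miR-370 (ending at 163245384) and miR-379 (starting at 163357370).

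Reads were found for every member, but 7 copies had next to none. Copies 9, 11, 13, 14, 15, 17 and 29 had 1 to 11 counts over all 6 libraries together and were removed by the filter on low counts. The other 26 members, with 80 or more counts each, were tested. Of all 33 members, 25 had reads in every library and 8 had no reads in at least 1 library. The one tested member among these 8 was copy 22 (ENSMMUG00000025608, SNORD114-16 in the gene name table), with 0 counts in vehicle 7, where 3 counts would be 1.31 CPM (counts scaled to a fixed library size). Levels are given as CPM after TMM scaling between libraries, and intervals and such limits cover counting error only.

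Per length, a few copies were abundant and many were low. On the scale of CPM per kb of gene, averaged over the 6 libraries, 7 copies stood at 3365 to 5974. They were copy 24 (5974), copy 2 (4774), copy 5 (4436), copy 7 (4429), copy 1 (3915), copy 6 (3747) and copy 4 (3365). All but copy 24 lie next to each other at the start of the row, where copy 3 (675 CPM per kb) is the low one between them. Copies 18 (2062) and 8 (1960) came next, followed by SNORD112 at 1122 CPM per kb. The 16 other tested copies ran from 69.1 (copy 22) to 1047 (copy 25) CPM per kb. Some neighbours in this order, such as copies 5 and 7, differed by less than the SD between libraries. Others, such as copy 8 and SNORD112, lay further apart. The 7 abundant copies together held 58.2 to 74.3% of the reads of all members, depending on the library.

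**Figure D1:**
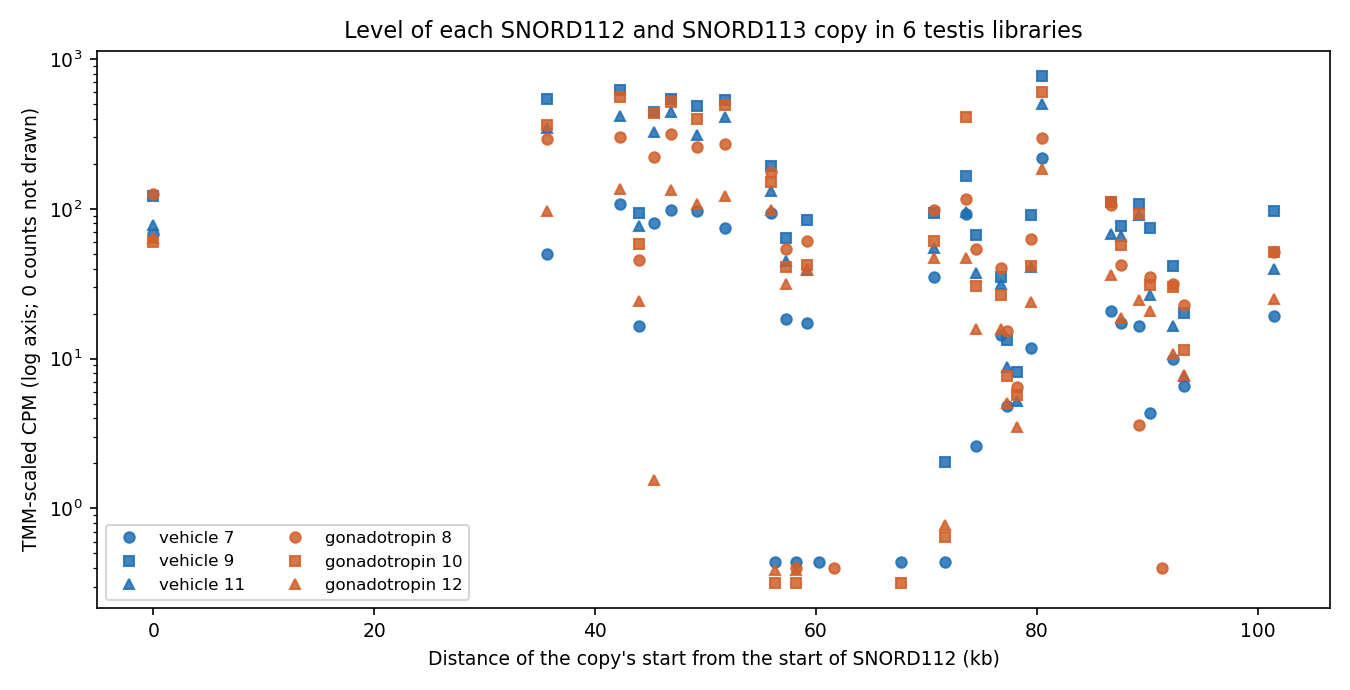
TMM-scaled CPM of each member (log axis) against the distance of its start from the start of SNORD112, with 1 point per library; blue points are the vehicle and orange points the gonadotropin libraries, and counts of 0 are not drawn. The abundant copies at the start of the row lie between 35.7 and 51.8 kb and copy 24 stands alone at 80.5 kb, and the points of both groups are mixed at almost every copy.

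The abundant copies showed one pattern over the libraries. In what follows vehicle values are in the order of animals 7, 9 and 11, and gonadotropin values in the order of animals 8, 10 and 12. Copy 24 (ENSMMUG00000041495, 163312577 to 163312648) was at 217, 771 and 505 CPM in vehicle and at 297, 605 and 185 CPM in gonadotropin testes. Copy 2 (ENSMMUG00000038000, 163274357 to 163274431) was at 108, 626 and 419.5 CPM in vehicle and 300.3, 559 and 135 CPM in gonadotropin. In both copies vehicle 9 and gonadotropin 10 were high, vehicle 7 and gonadotropin 12 were low, and the groups overlapped.

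The same order held in the copies beside them. Copy 5 (ENSMMUG00000025998, SNORD113-7 in the gene name table, 163278988 to 163279064) had 98.9, 542 and 442 CPM in vehicle against 319, 514.1 and 134.1 CPM in gonadotropin. For copy 7 (ENSMMUG00000045734, 163283841 to 163283912) the values were 74.5, 538 and 409.5 CPM and 271, 498 and 122 CPM. Within each group the lowest library was thus several times under the highest. Copy 1 (ENSMMUG00000039232, 163267781 to 163267852), the first of the row, gave 49.7, 542.7 and 348 CPM and 292, 363 and 96.2 CPM, the widest span of these, with vehicle 9 at 10.9 times vehicle 7. Copy 6 (ENSMMUG00000025693, SNORD113-8, 163281316 to 163281389) gave 97.6, 490.2 and 314 CPM and 259, 396 and 107 CPM. None of these 6 copies separated the groups.

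SNORD112 varied less. It stood at 67.5, 122 and 77.6 CPM in the vehicle testes, against 126, 60.4 and 64.1 CPM after gonadotropin, which is 89.2 ± 29.2 and 83.6 ± 37.0 CPM (SD, n = 3 each). The highest library, gonadotropin 8, was 2.09 times the lowest, gonadotropin 10, and gonadotropin 10 was among the high libraries for the abundant SNORD113 copies. The reads of all SNORD113 copies together were accordingly 16.7, 44.1 and 47.0 times those of SNORD112 in vehicle 7, 9 and 11, and 23.7, 76.8 and 19.9 times in gonadotropin 8, 10 and 12.

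Most of the lower copies shared the low levels of vehicle 7 and gonadotropin 12 with the abundant ones. In the abundant copies gonadotropin 10 was above gonadotropin 8. That order was reversed in many lower copies, such as copy 16 (61.4 against 99.0 CPM) and copy 31 (11.5 against 22.9 CPM). Copies 3, 18, 25, 26 and 27 kept it, and copy 32 was level. Among the lower copies near the start of the row, copy 3 (ENSMMUG00000026414, SNORD113-5, 163276061 to 163276138) was at 16.6, 94.4 and 76.4 CPM in vehicle and 45.7, 58.5 and 24.3 CPM in gonadotropin. Copy 8 (ENSMMUG00000045405) had 93.2, 193 and 132 CPM and 177, 152 and 98.9 CPM, with the highest library at 2.07 times the lowest. Copies 10 and 12 (ENSMMUG00000038651 and ENSMMUG00000025793, the latter SNORD114-5) ran from 18.3 to 64.4 and from 17.4 to 84.9 CPM, both lowest in vehicle 7 and highest in vehicle 9. The middle of the row held the lowest tested copies, among them copy 21 (ENSMMUG00000023926, SNORD114-15) at 4.79 to 15.2 CPM and copy 22 at 0 to 8.18 CPM. Copy 19 (ENSMMUG00000026549, SNORD114-13) was at 2.61, 67.2 and 37.2 CPM in vehicle and 53.7, 30.4 and 15.8 CPM in gonadotropin, so that vehicle 7 was far under the other 5. Copy 16 (ENSMMUG00000043248) ran from 35.3 to 99.0 CPM, copy 20 (ENSMMUG00000045641) from 14.4 to 40.5 CPM and copy 23 (ENSMMUG00000048814) from 11.8 to 90.7 CPM, all lowest in vehicle 7.

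Towards the end of the row, copy 25 (ENSMMUG00000024558) was at 20.9, 111 and 67.6 CPM in vehicle and 106, 111 and 36.3 CPM in gonadotropin. Copy 26 (ENSMMUG00000043943) was at 17.4, 77.4 and 65.6 CPM and at 42.1, 57.2 and 18.5 CPM. Copy 28 (ENSMMUG00000044411) again had vehicle 7 far below, at 4.36 CPM against 20.9 to 74.7 CPM elsewhere. In copy 30 (ENSMMUG00000042247) levels ran from 10.0 to 41.6 CPM. Copy 31 (ENSMMUG00000042999) was at 6.53, 20.1 and 7.60 CPM in vehicle and 22.9, 11.5 and 7.73 CPM in gonadotropin, highest in gonadotropin 8. The last of the row, copy 32 (ENSMMUG00000035223), ran from 19.2 to 96.1 CPM. Over all 26 tested members, vehicle 7 was the lowest library in 21 and vehicle 9 the highest in 20. Gonadotropin 8 was highest in 5 and lowest in 1, gonadotropin 10 highest in 1 and lowest in 1, and gonadotropin 12 lowest in 3. As a description over 6 libraries, which share depth and scaling among all copies, the log2 CPM of a member and the mean of the other tested members had a median Pearson r of 0.91 (0.37 in copy 27 to 0.99 in copy 1).

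**Figure D2:**
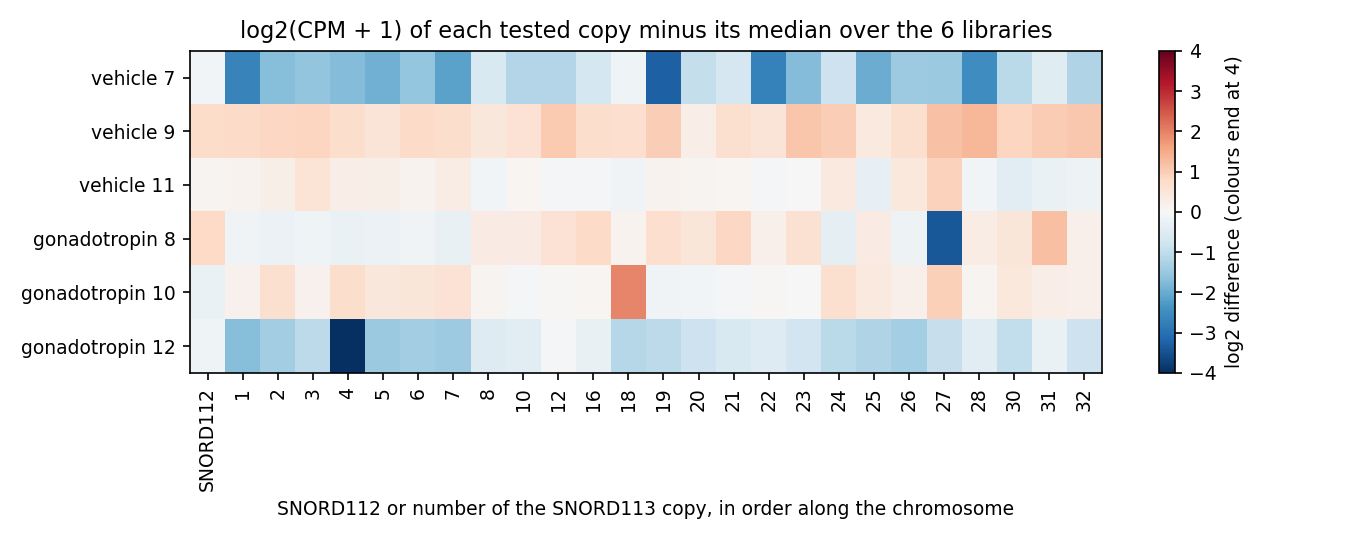
Colour gives log2(CPM + 1) of each tested member minus its own median over the 6 libraries, with libraries in rows and members in chromosomal order in columns; red is above and blue below the median. The row of vehicle 9 is red throughout, those of vehicle 7 and gonadotropin 12 are mostly blue, and copy 4 in gonadotropin 12 and copy 27 in gonadotropin 8 differ most from the cells around them.

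No copies were near-identical in their counts. Pairs were to be marked where both members had at least 30 counts in all and lay within 5% of each other in every library, and 0 of the 325 pairs of the 26 tested members did. Among all genes tested, 129 had such a partner, none of them a member. The closest pair was copies 2 and 5, 4631 bp apart, whose counts differed by 0.86 to 13.4% over the libraries. Copies 6 and 7 differed by up to 23.7% and copies 3 and 26, which lie 43673 bp apart, by up to 23.8%. Copies 14 and 29 had equal counts in every library, but that was 1 read each, in gonadotropin 8. How reads that fit several places were counted is not given in the sources used here. Reads of similar copies may thus have been counted at each copy, shared or dropped. The 2 genes named miR-507 had equal values above 0 in every library, but for the members the handling of such reads was not tested.

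The share of a library taken up by the members differed more between animals of a group than between groups. Members made 0.0939% of all counts in vehicle 7 (Wilson 95% interval 0.0904 to 0.0974), 0.596% in vehicle 9 (0.587 to 0.605) and 0.380% in vehicle 11 (0.373 to 0.388). They made 0.362% in gonadotropin 8 (0.354 to 0.370), 0.464% in gonadotropin 10 (0.456 to 0.471) and 0.135% in gonadotropin 12 (0.131 to 0.140). The counting intervals are narrow, and the animals of either group lie far outside each other's. Group means were 0.357 ± 0.252% in vehicle and 0.320 ± 0.168% in gonadotropin (SD, n = 3 each), so the group difference was smaller than the SD of either group. All genes named SNORD, members included, made 1.43, 4.77 and 3.83% of the counts in vehicle and 3.64, 3.26 and 2.15% in gonadotropin, and their part in the spread of the members was not tested. Within the reads of genes named SNORD the members still ranged, from 6.57, 12.5 and 9.92% in vehicle to 9.95, 14.2 and 6.28% in gonadotropin. In whole testis, fewer cells that make these RNAs and less RNA per cell cannot be told apart. With 1 library per animal, differences between animals cannot be told apart from differences between library preparations either.

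**Figure D3:**
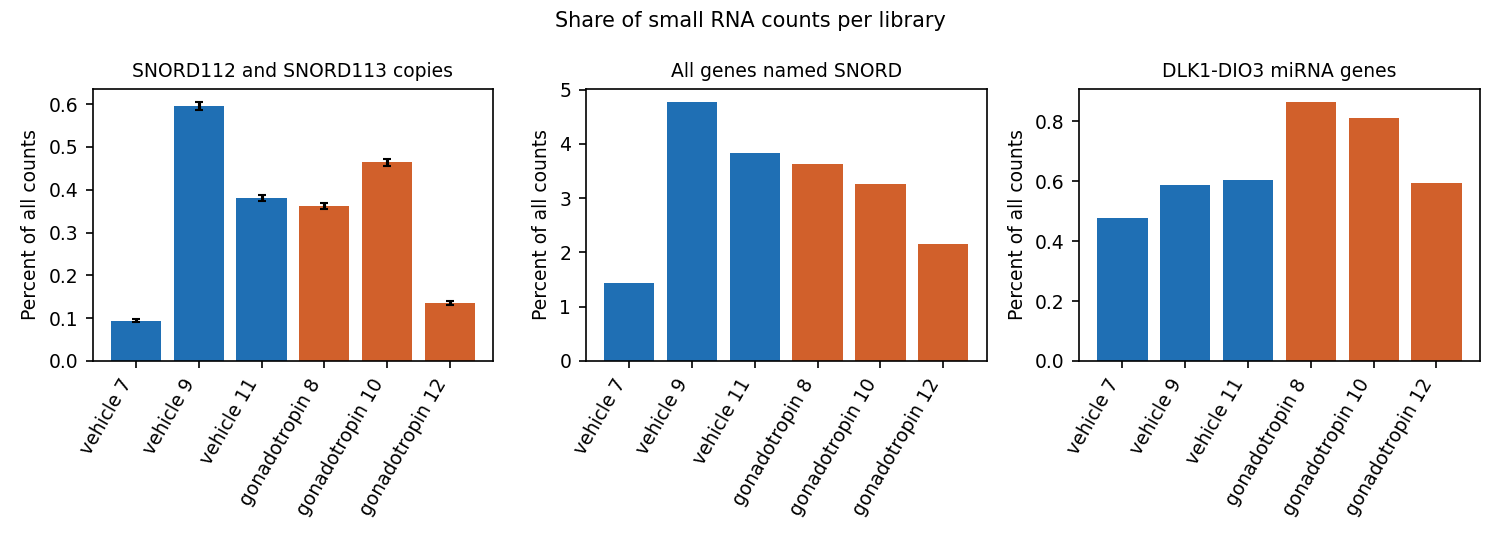
Bars give the percent of all small RNA counts per library (blue vehicle, orange gonadotropin; no averaging) for the members, for all genes named SNORD and for the named miRNA genes of the DLK1-DIO3 domain, and error bars in the left panel are Wilson 95% intervals. Vehicle 7 and gonadotropin 12 are the lowest libraries in both snoRNA panels, while in the miRNA panel gonadotropin 12 (0.594%) lies among the vehicle libraries.

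The members' share was also set against age. The 14-month animals, vehicle 9 and gonadotropin 10, had the largest shares, 0.596 and 0.464%. At 15 months the shares were 0.380% in vehicle 11 and 0.135% in gonadotropin 12, and the oldest animals had 0.0939% (vehicle 7, 24 months) and 0.362% (gonadotropin 8, 22 months). The gonadotropin animal was thus the lower one at 14 and 15 months and the higher one in the oldest pair.

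Gonadotropin was compared with vehicle by the edgeR quasi-likelihood test over all 717 tested small RNA genes. No member passed: 0 of 26 had an adjusted p under 0.05 (lowest adjusted p = 0.998, edgeR quasi-likelihood test), where 0.139% of all tested genes, 1 in number, did. An unadjusted p under 0.05 was found for 0 of 26 members and for 4.46% of all tested genes, and the groups failed to overlap in 0 of 26 members and in 8.23% of all tested genes. DESeq2, limma voom and the edgeR exact test also called 0 members, where they called 0.418%, 0% and 0.418% of all tested genes, so that 0 of 26 is near the share over all genes. Log2 fold changes were below 0 in 16 members and above 0 in 10, where 51.9% of all tested genes were below 0. The median was -0.13 over the members and -0.02 over all tested genes. Standard errors (SE) of 0.40 to 1.30 on the log2 scale show how little the 3 animals per group could resolve. The p-values set the group difference against the spread between animals, 1 library each, which edgeR estimates partly over all tested genes. In the authors' deposited table, from an edgeR exact test, the 26 members had log2 fold changes of -0.86 to 0.68 and p of 0.328 or more.

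The sign of that median changed with single libraries. It was -0.59 without vehicle 7 (24 of 26 members below 0) and 0.34 without vehicle 9 (22 above 0). Without gonadotropin 12 it was 0.19 (21 above 0), without gonadotropin 8 -0.26 (23 below 0), without gonadotropin 10 -0.21 and without vehicle 11 -0.08. Scaling to the other genes named SNORD in place of all small RNAs turned it to 0.18, with 21 members above 0, and moved the median of all tested genes to 0.099; with library totals the medians were -0.078 and 0.090. With age as a covariate it was 0.08 (18 above 0), and with limma voom 0.03 (14 above 0). With near-identical genes merged it was -0.16 (20 below 0), where the median of all tested genes was -0.073. The sign of the fold change was the same without each of the 6 libraries in 4 of 26 members, copies 3, 24, 26 and 27, all below 0. Their values ran from -0.97 to -0.15, from -1.04 to -0.043, from -0.84 to -0.091 and from -2.31 to -0.27, so that some came close to 0.

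Values of single members lay within their errors. The largest log2 fold change was 0.70 (SE 0.71) in copy 18 and the lowest -0.83 (SE 1.02) in copy 27, and these had unadjusted p of 0.355 and 0.44 by the edgeR quasi-likelihood test. Copy 3 had a value of -0.54 (SE 0.64, unadjusted p = 0.421 by the same edgeR test). The most abundant, copy 24, had a value of -0.46 (SE 0.58) from 498 ± 277 to 362 ± 218 CPM (SD, n = 3 each). The 5 copies next in abundance had values of -0.32 (copy 1, SE 0.79) to -0.16 (copy 5, SE 0.67). SNORD112 was at -0.09 (SE 0.44). On the other side of 0, copy 25 had a value of 0.34 (SE 0.65) and copy 31 of 0.28 (SE 0.58).

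**Figure D4:**
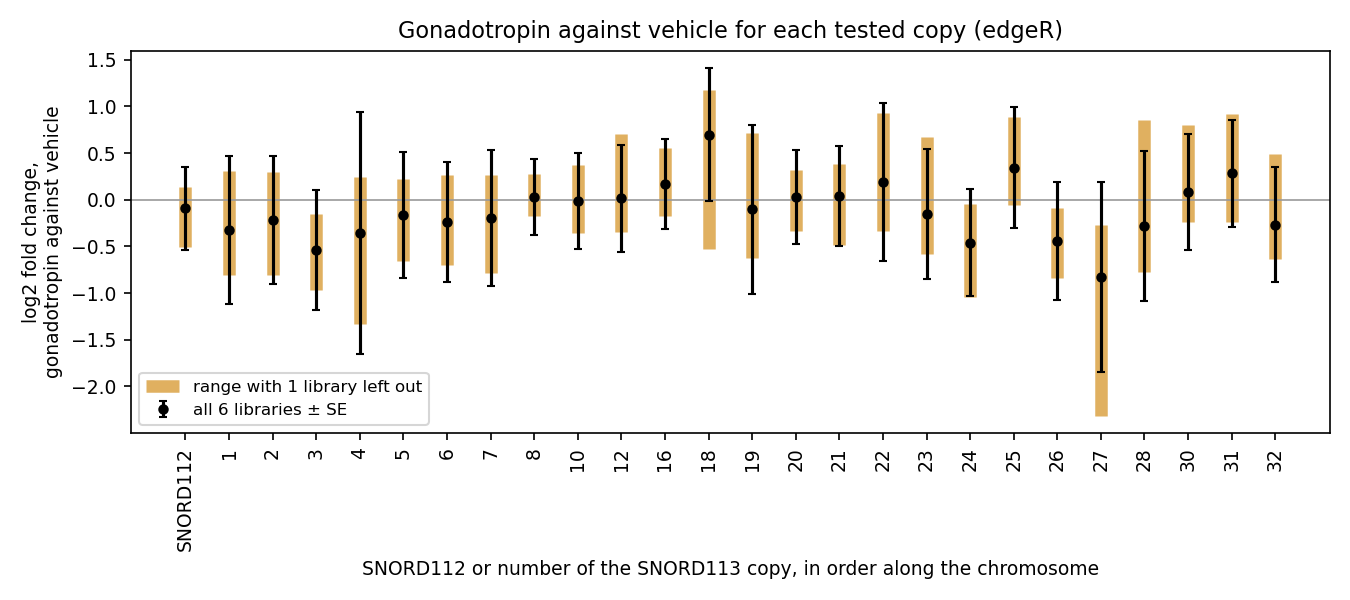
Log2 fold change of gonadotropin against vehicle for each tested member in chromosomal order; points are the fit on all 6 libraries with bars of ± 1 SE, and yellow bars span the 6 fits that each leave out 1 library. The points lie between -0.83 and 0.70, and the yellow bars cross 0 in all but copies 3, 24, 26 and 27.

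Copies 4, 27 and 18 were picked out for single libraries after their values were seen. Set against its own median and that of all tested copies in the same library, a copy departed by 2 or more on the log2 scale in 2 cases, copy 4 by -5.77 in gonadotropin 12 and copy 27 by -3.93 in gonadotropin 8. Next came copy 18 (1.87 in gonadotropin 10 and 1.39 in vehicle 7) and copies 19 and 22 in vehicle 7 (-1.86 and -1.44), the last 2 from 6 and 0 reads. Copy 4 (ENSMMUG00000048064, 163277420 to 163277494) is one of the abundant copies, at 80.6, 442 and 327 CPM in vehicle and 223 and 440.2 CPM in gonadotropin 8 and 10, but it was at 1.55 CPM in gonadotropin 12. That value rests on 4 reads (exact Poisson 95% interval 1.09 to 10.2 reads). Copy 5, the next in the row, had 347 reads in the same library. The ratio of copy 4 to copy 5 was 0.815, 0.816 and 0.740 in vehicle 7, 9 and 11 and 0.699 and 0.856 in gonadotropin 8 and 10, against 0.0115 in gonadotropin 12. The log2 fold change of copy 4, -0.35 (SE 1.30), had the widest error of the members and was 0.25 without gonadotropin 12.

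Copy 27 (ENSMMUG00000026081, SNORD114-25, 163321322 to 163321393) showed the like in gonadotropin 8. It was at 16.6, 107 and 90.8 CPM in vehicle and at 3.61, 92.4 and 24.7 CPM in gonadotropin. The low value rests on 9 reads (exact Poisson 95% interval 4.12 to 17.1 reads). Against copy 26, its ratio of reads was 0.95, 1.39 and 1.38 in vehicle and 1.61 and 1.33 in gonadotropin 10 and 12, but 0.0857 in gonadotropin 8. Without that library its log2 fold change was -0.27 in place of -0.83, and without gonadotropin 10 it was -2.31. Leaving out both copies, 14 of 24 members were below 0 with a median of -0.10.

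Copy 18 (ENSMMUG00000041060, 163305682 to 163305756) was high relative to the other copies in gonadotropin 10 and, less so, in vehicle 7. In vehicle 7 this was not particular to copy 18 (1.39), since SNORD112 and copy 8 departed by 1.09 and 0.87 on the same log2 scale. Copy 18 was at 92.8, 166 and 94.8 CPM in vehicle and at 117, 410.2 and 47.1 CPM in gonadotropin. Relative to copy 8, the other copy of its level, its reads stood at 0.995, 0.861 and 0.716 in vehicle and at 0.660, 2.70 and 0.477 in gonadotropin. Its log2 fold change of 0.70 was -0.52 without gonadotropin 10. Sequences of these copies were not analysed here, and what sets these values was not tested.

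**Figure D5:**
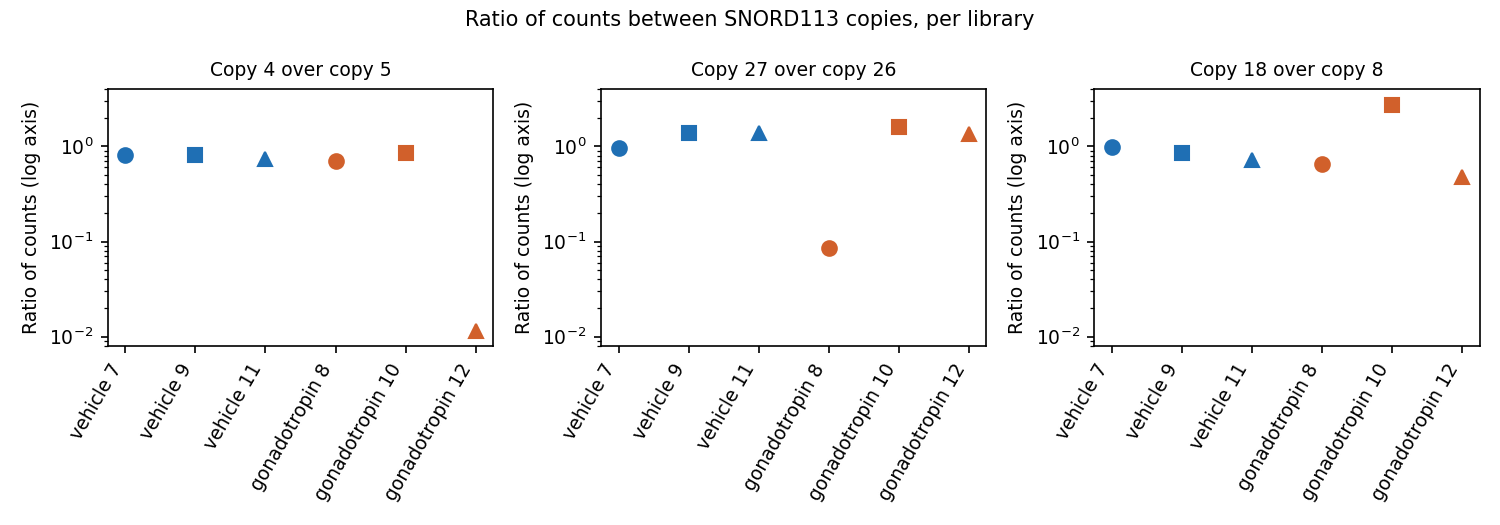
Ratio of reads between 2 copies in each library (log axis; blue vehicle, orange gonadotropin, 1 point per library) for copies 4 and 5, 27 and 26, and 18 and 8. In each panel 1 point stands apart from the other 5, at 0.0115 in gonadotropin 12, at 0.0857 in gonadotropin 8 and at 2.70 in gonadotropin 10.

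The miRNA genes of the same domain were compared as the other products of the locus. Of 35 tested by name, 32 had log2 fold changes above 0 and 3 below, with a median of 0.48, and 0 passed the edgeR quasi-likelihood test (lowest adjusted p = 0.804). For the members the same count was 10 above and 16 below. Whether the lists differ was not tested. The miRNA genes that flank the row were miR-370 at 7.41, 15.7 and 7.20 CPM in vehicle and 24.5, 23.3 and 22.0 CPM in gonadotropin (log2 fold change 1.19 with SE 0.42, edgeR adjusted p = 0.85), and miR-379 at 335, 352 and 233 CPM and 686, 361 and 357 CPM (0.61 with SE 0.39, edgeR adjusted p = 0.998). The groups did not overlap in either, although for miR-379 vehicle 9 at 352 CPM came close to gonadotropin 12 at 357 CPM. Of the 35 tested domain miRNA genes, 10 did not overlap between groups (28.6%), against 8.23% of all tested genes. Reads of the members per 100 reads of the named domain miRNAs were 19.6, 101 and 62.9 in vehicle and 41.8, 57.1 and 22.7 in gonadotropin, so that both the lowest and the highest ratio were in vehicle animals.

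The spread between animals of a group was also set beside that of other snoRNAs. The SD of log2 CPM within groups had a median of 1.06 over the 26 tested members, 0.68 over 121 other genes named SNORD, 0.51 over 30 copies of SNORD115 and SNORD116, 0.50 over 51 H/ACA box genes named SNORA and 0.53 over all tested genes. These are descriptions, and members share their libraries and largely their pattern, so they are not 26 separate measures. Values below 0 made 61.5% of the members, 76.0% of the other genes named SNORD, 39.2% of the genes named SNORA and 100% of the SNORD115 and SNORD116 copies, which are the snoRNA arrays of another imprinted domain.

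The libraries carried the miRNAs of testis. Summed levels of 9 testis miRNA genes (miR-506 to miR-509 genes, miR-34 and miR-449 genes) were 9411 to 13367 CPM in vehicle and 8732 to 17083 CPM in gonadotropin, and no gene of the list was at 0. The 2 genes named miR-507 had equal values in every library, so these reads enter the sum double. Most of the sum came from the miR-506 to miR-509 genes. The genes miR-34b, miR-34c and miR-449a were at 32.2, 19.6 and 16.6 CPM in vehicle 7 against 4.43, 3.75 and 3.41 CPM in vehicle 9. In vehicle 11 they were at 19.6, 20.4 and 12.4 CPM, and miR-34c was highest in gonadotropin 8, at 43.7 CPM. From vehicle 7 to vehicle 9, miR-507 and miR-508 were lower too, while miR-506, miR-509-1 and miR-509-2 were higher. The 10 neural miRNA genes, looked at because these snoRNAs are known from brain, summed to 862 to 1032 CPM in vehicle and 938 to 1175 CPM in gonadotropin. Most of that was miR-128, whose 2 genes had nearly equal counts, while miR-124 genes were at 18.4 to 30.9 CPM each and miR-137 was at 0 in 3 libraries. The summed neural level reached 870 CPM (vehicle 7) and 1175 CPM (gonadotropin 12) in the 2 libraries lowest in the members, and 1032 CPM (vehicle 9) in the highest. The other neural genes did not share that order. Each miR-9 gene was at 60.1 CPM in vehicle 7 against 15.7 CPM in vehicle 9. For miR-219-2 this was 12.2 against 1.36 CPM, and for each miR-124 gene 30.9 against 18.4 CPM. The miR-9 genes were alike in gonadotropin 12 (31.3 CPM) and gonadotropin 10 (31.6 CPM), and miR-219-2 was at 0.80 to 2.56 CPM outside vehicle 7. Values were nearly equal among the miR-9 genes and equal among the miR-124 genes, so these reads enter the neural sum more than once. The 4 epithelial miRNA genes (miR-200a, miR-200c, miR-141 and miR-429) summed to 97.2, 28.0 and 41.2 CPM in vehicle and 62.6, 31.6 and 49.1 CPM in gonadotropin, highest in vehicle 7 and lowest in vehicle 9. The 4 red blood cell genes, of which the 2 named miR-144 had equal values, summed to 2413 to 4983 CPM in vehicle and 3625 to 3797 CPM in gonadotropin. Endothelial miR-126 was at 4354 to 7475 and 5738 to 7074 CPM, the 4 muscle genes summed to 33.4 to 37.5 and 29.3 to 39.3 CPM, and liver miR-122 was at 0.68 to 1.31 and 0.77 to 1.28 CPM. The part of other cell types in the members' spread was not tested.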

How the data were processed

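Small RNA of whole testis was sequenced from 6 monkeys. The deposited table holds raw counts per gene on rheMac8; HTSeq 0.6.1p1, Bowtie 1.1.2, cutadapt 1.9.1 and edgeR are named in the submitters' processing notes. The sample titles and the library protocol name different sequencing platforms. Settings for strand and for reads that fit several places are not given in the sources used here. A deposited comparison by the authors gives log2 fold changes and p-values. A further 12 per-sample columns that come with this comparison were not used.

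Genes were filtered with filterByExpr (minimum count 10, by group), normalised by TMM and fitted in edgeR 4.0.16 by quasi-likelihood (R 4.3.3, robust estimation, Benjamini-Hochberg adjustment over 717 genes, threshold 0.05). The common coefficient of variation was 46.2%. SE was approximated from the size of the log2 fold change over the root of its F statistic. The script was tested on simulated data. Alternatives were other scalings, no filter, DESeq2 1.42.0, limma 3.58.1 voom, the edgeR exact test, no robust estimation, merged near-identical genes, age as a covariate, pairs by age and leaving out each library. Values in every library were set by rule for SNORD112, the 6 most abundant copies, the 3 smallest p, and the 3 highest and 3 lowest fold changes; those of other copies were added. The gene name table matched 1328 of 3083 IDs. Members and lists were chosen with earlier results of these data known. An exact permutation test of 3 against 3 cannot give p under 0.1 and was not used.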

Additional observations from a re-analysis of the deposited data

How the results depend on the processing

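No member was called under any of the alternatives run; over all genes each called 0 to 3 of 645 to 3083, so this says nothing particular to the members, and the lowest adjusted p was 0.618 (edgeR quasi-likelihood test, without vehicle 7 and gonadotropin 10 together, an alternative chosen after seeing the data). That fit leaves out vehicle 7, the lowest library in 21 of 26 members, and gonadotropin 10, the highest gonadotropin library of the abundant copies, so that its values for these copies were lowered by the choice itself. It gave 5 of 26 members (copies 2, 3, 7, 24 and 27) an unadjusted p under 0.05 by the same edgeR test, against 7.14% of all genes. That count is shaped by the same choice. Pairing animals by age gave 13 members above and 13 below 0, and 1 of 26 members (copy 27, 0.0471 by the same edgeR test) an unadjusted p under 0.05, against 2.65% of all genes. No paired analysis by replicate number was possible because the groups share no animal numbers. Several log2 fold changes turned sign. Scaling to the other genes named SNORD gave 0.057 for SNORD112, 0.084 for copy 2, 0.13 for copies 5 and 7, 0.034 for copy 1 and 0.038 for copy 6. Age as a covariate gave 0.0064 for copy 2, 0.074 for copy 5, 0.10 for copy 7 and 0.12 for copy 1. Library totals gave 0.034 for SNORD112 and limma voom gave 0.023 for copy 1. Without vehicle 7 and gonadotropin 10 the values were 0.023 for SNORD112, -0.57 for copy 18 and -0.23 for copy 25. Leaving out 1 library at a time gave -0.50 to 0.14 for SNORD112, -0.81 to 0.31 for copy 1, -0.81 to 0.30 for copy 2, -1.33 to 0.25 for copy 4, -0.66 to 0.23 for copy 5, -0.71 to 0.27 for copy 6, -0.78 to 0.27 for copy 7, -0.52 to 1.17 for copy 18, -0.057 to 0.89 for copy 25 and -0.24 to 0.91 for copy 31. The cause was not tested. With limma voom, copy 4 was at -2.01. Depth limits the 7 copies with 11 or fewer counts, for which no comparison was made.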

Other observations

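Outside the members, the 5 tested genes whose log2 CPM was most alike to the mean of the tested members over the 6 libraries were SNORD58 on chromosome 18 (Pearson r 0.98), SNORD37 on chromosome 19 (0.978), miR-145 on chromosome 6 (0.978), SNORD48 on chromosome 4 (0.966) and SNORD121A on chromosome 15 (0.963). SNORD58, SNORD37, SNORD48 and SNORD121A are C/D box snoRNAs of other loci. SNORD37 was at 213, 1255 and 990.2 CPM in vehicle and 662, 1011 and 321 CPM in gonadotropin, again with vehicle 9 high and vehicle 7 and gonadotropin 12 low. miR-145, a miRNA abundant in smooth muscle, was at 8104, 16825 and 11863 CPM in vehicle and 12919.5, 14483 and 7868 CPM in gonadotropin. All values share their libraries and scaling, and the likeness is a description of 6 libraries.

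After the low value of copy 4 was seen, all tested genes were searched for a library at least 8 times under the next lowest, where that one had 20 CPM or more. Of 423 genes with such a next lowest level, 8 were found. Copy 4 in gonadotropin 12 was the one member among them, 52.1 times under the next lowest library. The others were 6 mitochondrial tRNA genes in gonadotropin 10 and a Y RNA gene in vehicle 7. Copy 27, at 3.61 CPM in gonadotropin 8, met neither condition of this search. Its next lowest library, vehicle 7, was at 16.6 CPM, which is under 20 CPM and less than 8 times higher.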
